A study of Homo sapiens with 26 samples.

Results

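MV4-11 cells held for 5 days in quizartinib, with dexamethasone joined to it on day 3, were compared with MV4-11 cells given both drugs for 48 h. The comparison rests on 6 of the 26 RNA sequencing libraries of the study, 3 labelled as the combination at 5 d and 3 as the combination at 48 h, and it was made over all 16430 genes of the deposited count tables. MV4-11 is an established human cell line from acute myeloid leukaemia that depends on an activated FLT3 receptor. Quizartinib, given at 10 nM, blocks the FLT3 kinase, and dexamethasone, given at 100 nM, is a synthetic glucocorticoid. Per the study's design text, the RNA came from cells that survived the treatment. The 2 groups differ both in days under quizartinib and in the order of the drugs, and these cannot be told apart. The hours that the 5 d cells spent in dexamethasone are not given, and there was no DMSO or dexamethasone group at 5 d. Beside the 6 libraries stand 12 others of the same experiment, 3 each of quizartinib alone at 5 d, quizartinib alone at 48 h, dexamethasone alone at 48 h and DMSO at 48 h, while the remaining 8 libraries belong to a recovery experiment and were not used here. The labels do not say whether the 3 libraries of a group came from separate cultures. Each p rests on the spread between libraries within groups, estimated with all 18 libraries of the experiment, and this spread may be technical.

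FLT3 is a receptor tyrosine kinase that drives survival and division of these cells through STAT5 and MAP kinase signalling, and inhibitors of the kinase slow their division. Glucocorticoids bind the receptor NR3C1, which moves to the nucleus and raises genes such as FKBP5 and TSC22D3, and in lymphoid cells also the death gene BCL2L11. Genes that carry a cell through division are switched on together late in the cycle, many of them through the promoter elements known as CHR and CCAAT, whereas genes for DNA synthesis are read earlier, and histone genes with S phase.

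Total counts ran from 14795190 to 21325569 in the 3 libraries of 5 d and from 21577884 to 24990476 in the 3 of 48 h. The first principal component of the 6 libraries held 40.72% of their variance and set the 5 d libraries (18.04 to 44.13) apart from the 48 h libraries (-42.24 to -24.70). The small structural RNAs 7SK and 7SL took 16.47% to 22.12% of the counts at 5 d and 21.48% to 31.61% at 48 h, the highest share being that of the third 48 h library. That library also differed from its partners in 18 immediate early and heat shock genes, which summed to 807, 856 and 2091 CPM (the count of a gene relative to its library total after TMM scaling) in libraries 1, 2 and 3 of 48 h, and to 1107, 1424 and 1525 CPM at 5 d. The third library was the highest of its group in 17 of these 18 genes in the 48 h combination, in 17 with quizartinib at 48 h, and in all 18 with DMSO and with dexamethasone. For many of the lists and genes below, values without library 3 of any group are therefore given as well. That fit also takes library 3 of every other group out of the shared estimate of the spread. The markers of the line were present in every combination library: FLT3 had 729, 642 and 681 CPM at 5 d, against 715, 687 and 581 CPM at 48 h, and HOXA9 had 71.7, 84.04 and 76.6 CPM at 5 d, against 82.2, 84.5 and 70.9 CPM at 48 h. SPI1, CD33, CSF1R, MEIS1 and LYZ ranged from 83.05 CPM (CSF1R) to 210.3 CPM (LYZ) over the 6 libraries, and CD14 was not analysed here.

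Between the combination groups, 628 genes were higher at 5 d and 897 lower (edgeR's quasi-likelihood test, adjusted p under 0.05 after Benjamini-Hochberg adjustment over all 16430 genes). That is 9.28% of the genes, 3.82% higher and 5.46% lower. Counts of list members called between these groups over all libraries are to be read beside these shares. The larger changes were mostly falls: 219 genes fell at least 2-fold and 62 rose at least 2-fold, while 72 fell at least 4-fold and 13 rose at least 4-fold. Over all genes the median log2 fold change was -0.01. The 3 and 3 libraries did not overlap in 1510 of the 1525 called genes and in 34.2% of all genes. All called genes named below are among the 1510 apart from ODC1 and CTSS. The count of calls was 2537 (1094 higher, 1443 lower) when library 3 of every group was left out. It was 730 without library 1 of 5 d, 617 without library 2 of 5 d, and 808, 883 and 1010 without library 1, 2 or 3 of 48 h.

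**Figure D1:**
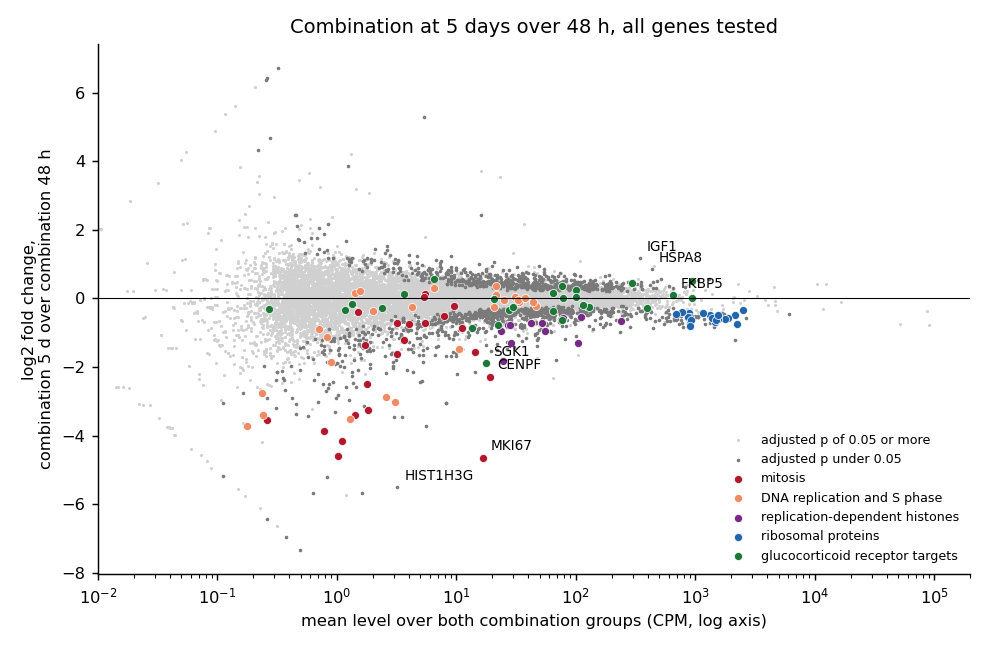
Mean level over both combination groups (CPM, log axis) against the log2 fold change of the combination at 5 d over 48 h, 1 point per gene, with 5 gene lists in colour. The mitosis genes reach down to -4.64 (MKI67), while the ribosomal protein genes lie close together between -0.80 and -0.34.

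Of 22 listed genes of mitosis, 17 fell, none rose, and the median log2 fold change was -1.46. MKI67, which codes for the proliferation marker Ki-67 (chr10:128096659-128126385, minus strand on GRCh38), had 0.806, 1.33 and 1.67 CPM at 5 d, against 31.8, 31.8 and 33.5 CPM at 48 h. The 3 libraries of 5 d lie far below the 3 of 48 h. MKI67 fell by 4.64 ± 0.20 on the log2 scale (adjusted p = 1.8e-10). The error of every fold change is its standard error in the fit over all 18 libraries. CENPF, a kinetochore protein of dividing cells, had 6.14, 5.89 and 7.47 CPM at 5 d, against 31.8, 30.4 and 33.2 CPM at 48 h. CENPF fell by 2.28 ± 0.15 on the log2 scale (adjusted p = 3.2e-08). TOP2A, the topoisomerase that untangles chromosomes, had 8.49, 7.47 and 6.04 CPM at 5 d, against 26.5, 21.9 and 15.7 CPM at 48 h. TOP2A fell by 1.55 ± 0.17 on the log2 scale (adjusted p = 1.8e-05). FOXM1, the transcription factor that switches on late cell-cycle genes, had 0.248, 0.316 and 0.428 CPM at 5 d, against 2.72, 3.88 and 3.37 CPM at 48 h. FOXM1 fell by 3.27 ± 0.27 on the log2 scale (adjusted p = 7.3e-07).

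CCNB2, a mitotic cyclin, was at 1.798, 1.46 and 1.47 CPM at 5 d, against 5.22, 5.06 and 4.13 CPM at 48 h. CCNB2 fell by 1.62 ± 0.13 on the log2 scale (adjusted p = 6.9e-07). PLK1, a kinase of mitotic entry, had 2.604, 1.77 and 2.19 CPM at 5 d, against 4.71, 5.901 and 4.72 CPM at 48 h. PLK1 fell by 1.22 ± 0.16 on the log2 scale (adjusted p = 1.0e-04). The remaining called members ran from -4.61 for the kinesin gene KIF20A to -0.51 for the kinesin gene KIF11. The spindle kinase gene AURKA had 6.26, 5.19 and 5.85 CPM at 5 d, against 6.41, 5.59 and 3.58 CPM at 48 h, and the groups overlap. AURKA did not pass (log2 fold change 0.14 ± 0.16, adjusted p = 0.64). BUB1, a spindle checkpoint kinase, had 8.86, 8.86 and 8.896 CPM at 5 d, against 11.8, 11.2 and 8.09 CPM at 48 h. BUB1 did not pass (log2 fold change -0.23 ± 0.13, adjusted p = 0.3). Of the 17 calls, 15 held in each of the 6 fits that left out 1 combination library. Without library 3 of any group, 19 of the 22 genes fell and BUB1 was among them (log2 fold change -0.38, adjusted p = 0.023). All 6 libraries were far below the cycling controls, since MKI67 averaged 1039 ± 103 CPM with dexamethasone alone and 924 ± 101 CPM with DMSO (SD, n = 3 each).

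**Figure D2:**
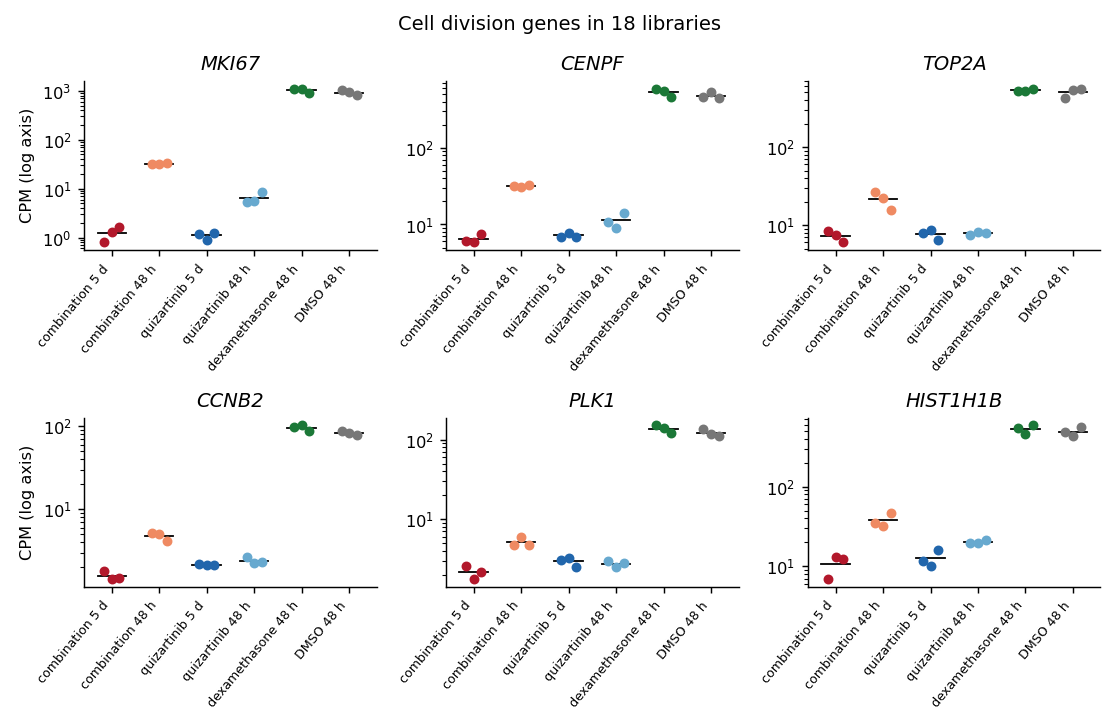
Levels (CPM, log axis) of 6 cell division genes in each of the 18 libraries, with points for libraries and a line at the mean of a group. In all 6 genes the 5 d combination libraries lie below the 48 h combination libraries, and both lie below dexamethasone alone and DMSO.

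The promoters of MKI67, CCNB2, PLK1 and CENPF are shown as examples that carry letters of the CHR or CCAAT elements named above. Among other genes that fell, the promoters of CENPE, CDCA5, CDT1 and IQGAP3 held no match to the letters searched, which are given below. Other forms of the elements were not searched. Each sequence is the 250 bases before the start of the gene in RefSeq's table on GRCh38.p14, written 5′ to 3′ on the gene's strand. Capitals mark CHR letters (TTTGAA or its reverse complement TTCAAA) and CCAAT letters (CCAAT or its reverse complement ATTGG).
MKI67 (chr10:128126424-128126673, minus strand): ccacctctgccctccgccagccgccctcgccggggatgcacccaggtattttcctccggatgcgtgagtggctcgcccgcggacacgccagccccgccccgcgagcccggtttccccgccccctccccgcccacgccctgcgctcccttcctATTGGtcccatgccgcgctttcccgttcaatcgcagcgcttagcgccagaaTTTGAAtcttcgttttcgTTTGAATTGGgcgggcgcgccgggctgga
CCNB2 (chr15:59104896-59105145, plus strand): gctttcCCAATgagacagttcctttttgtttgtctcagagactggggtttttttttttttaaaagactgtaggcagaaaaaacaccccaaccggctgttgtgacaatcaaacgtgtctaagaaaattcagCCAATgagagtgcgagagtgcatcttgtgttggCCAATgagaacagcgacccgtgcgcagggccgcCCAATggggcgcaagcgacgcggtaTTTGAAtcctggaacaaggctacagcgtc
PLK1 (chr16:23678639-23678888, plus strand): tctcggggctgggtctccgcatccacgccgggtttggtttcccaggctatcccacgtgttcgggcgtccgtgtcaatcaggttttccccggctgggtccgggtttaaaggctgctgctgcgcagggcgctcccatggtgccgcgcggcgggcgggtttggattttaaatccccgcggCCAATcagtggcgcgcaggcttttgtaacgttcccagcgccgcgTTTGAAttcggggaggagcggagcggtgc
CENPF (chr1:214602945-214603194, plus strand): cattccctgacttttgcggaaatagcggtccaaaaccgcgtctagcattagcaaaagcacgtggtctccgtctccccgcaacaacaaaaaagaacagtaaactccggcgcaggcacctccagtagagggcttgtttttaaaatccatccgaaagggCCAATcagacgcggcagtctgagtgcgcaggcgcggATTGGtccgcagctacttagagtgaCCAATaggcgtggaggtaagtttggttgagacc
In MKI67 the CHR letters nearest the start run into an ATTGG. PLK1 and CCNB2 have 1 CHR match each, starting 29 bases before the start, and 1 and 4 CCAAT matches, and CENPF has 3 CCAAT matches and no CHR match. RefSeq's table held 15 of the 22 mitosis genes. Of these 15 promoters, 53.3% held CHR letters, 86.7% CCAAT letters and 46.7% both. Among all 27305 promoters of the table the shares were 13.6%, 33.0% and 4.85%, and among the 21 matched promoters of the DNA replication list 4.76%, 61.9% and 4.76%. Such matches describe letters, not binding, and no promoter activity was measured.

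Genes of DNA synthesis were split. Of 26 listed genes, 8 fell and none rose, with a median of -0.24. Of the 8 calls, 5 held in each fit that left out 1 combination library. RRM2, the ribonucleotide reductase subunit made in S phase, had 0.682, 0.759 and 0.571 CPM at 5 d, against 4.33, 5.06 and 6.84 CPM at 48 h. RRM2 fell by 3.01 ± 0.33 on the log2 scale (adjusted p = 4.0e-05). TYMS, thymidylate synthase, had 0.31, 0.759 and 0.761 CPM at 5 d, against 5.73, 4.62 and 3.31 CPM at 48 h. TYMS fell by 2.88 ± 0.28 on the log2 scale (adjusted p = 7.0e-06). MYBL2, a cell-cycle transcription factor, had 0, 0.1898 and 0.381 CPM at 5 d, against 2.93, 2.25 and 2.01 CPM at 48 h. MYBL2 fell by 3.51 ± 0.42 on the log2 scale (adjusted p = 6.3e-05). CDT1, which licenses replication origins, had 6.51, 4.94 and 5.33 CPM at 5 d, against 16.9, 15.1 and 14.3 CPM at 48 h. CDT1 fell by 1.47 ± 0.12 on the log2 scale (adjusted p = 6.4e-07). None of the 6 genes of the MCM helicase, which unwinds DNA at replication origins, passed the test. Their log2 fold changes ran from -0.22 (MCM4) to 0.37 (MCM2). MCM4 had 41.7, 43.4 and 43.8 CPM at 5 d, against 48.95, 48.9 and 52.5 CPM at 48 h (adjusted p = 0.18). Outside the list, PCLAF, the PCNA-associated factor, had 0.6199, 0.633 and 0.523 CPM at 5 d, against 6.79, 7.71 and 4.89 CPM at 48 h. PCLAF fell by 3.46 ± 0.29 on the log2 scale (adjusted p = 1.2e-06). A transcript that overlaps it on the same strand, AC087632.1, fell as well (-3.13, adjusted p = 0.0021).

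Histone genes that are read in S phase fell in 11 of 12 listed cases, with a median of -0.77 and none higher. HIST1H1B, a linker histone gene, had 6.94, 12.9 and 12.3 CPM at 5 d, against 35.4, 31.97 and 47.2 CPM at 48 h. HIST1H1B fell by 1.83 ± 0.21 on the log2 scale (adjusted p = 7.4e-05). HIST1H1C, another linker histone, had 43.6, 62.5 and 76.5 CPM at 5 d, against 147, 135 and 164 CPM at 48 h. HIST1H1C fell by 1.29 ± 0.21 on the log2 scale (adjusted p = 0.0019). Histone H3 genes outside the list fell more steeply than any listed member. They are named as being among the 12 lowest fold changes of called genes with a mean of at least 5 CPM in 1 group and no overlap. HIST1H3G had 0, 0.316 and 0.0951 CPM at 5 d, against 6.37, 5.77 and 6.68 CPM at 48 h. HIST1H3G fell by 5.50 ± 0.41 on the log2 scale (adjusted p = 5.9e-07). HIST1H3B had 0.496, 0.506 and 1.24 CPM at 5 d, against 10.8, 8.01 and 12.4 CPM at 48 h. HIST1H3B fell by 3.71 ± 0.39 on the log2 scale (adjusted p = 5.1e-05). HIST2H3A and HIST2H3C have the same counts in every library (log2 fold change -3.04 ± 0.35 each), being near-identical copies whose reads cannot be assigned, so the pair counts as 1 measurement. Of the list, HIST2H2AC had 15.8, 20.8 and 25.3 CPM at 5 d, against 32.1, 24.97 and 48.7 CPM at 48 h. HIST2H2AC did not pass (log2 fold change -0.77 ± 0.27, adjusted p = 0.091). The summed level of the 12 genes lay between 496 and 693 CPM at 5 d and between 930.4 and 1124 CPM at 48 h. Of the 11 calls, 6 held in each fit that left out 1 library, and 10 after a correction for transcript GC content and length.

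Of 21 listed ribosomal protein genes, 17 fell and none rose, with a median of -0.57 and a range from -0.80 to -0.34. In all 21 the 3 libraries of 5 d lay below the 3 of 48 h, beside 34.2% of all genes without overlap in either direction. RPSA, of the small subunit, had 635, 602 and 745 CPM at 5 d, against 1242, 1171 and 1031 CPM at 48 h. RPSA fell by 0.80 ± 0.11 on the log2 scale (adjusted p = 1.8e-04). RPS2 had 1605, 1533 and 1804 CPM at 5 d, against 2855, 2606 and 2874 CPM at 48 h. RPS2 fell by 0.75 ± 0.11 on the log2 scale (adjusted p = 3.8e-04). RPL5, of the large subunit, had 638, 641 and 763 CPM at 5 d, against 1213, 1118 and 1046 CPM at 48 h. RPL5 fell by 0.73 ± 0.10 on the log2 scale (adjusted p = 1.6e-04). RPL13 did not pass (log2 fold change -0.34 ± 0.12, adjusted p = 0.08). RPS19 did not pass (log2 fold change -0.44 ± 0.15, adjusted p = 0.076). Of the 17 calls, 9 held in each fit that left out 1 combination library. Without library 3 of any group, all 21 passed, while the GC and length correction left 13. Summed over the list, the level was 21680 to 26080 CPM at 5 d and 32970 to 36000.0 CPM at 48 h.

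Ribosome assembly genes gave few calls. Of 20 genes of the MYC and ribosome biogenesis list, 3 fell, beside 5.46% of all genes. FBL, the rRNA methyltransferase fibrillarin, had 73.4, 72.8 and 76.7 CPM at 5 d, against 131, 119.9 and 107 CPM at 48 h. FBL fell by 0.68 ± 0.10 on the log2 scale (adjusted p = 2.1e-04). NPM1, nucleophosmin, had 319.9, 293 and 324 CPM at 5 d, against 472, 453 and 399 CPM at 48 h. NPM1 fell by 0.50 ± 0.08 on the log2 scale (adjusted p = 8.6e-04). ODC1, the first enzyme of polyamine synthesis, had 71.8, 74.4 and 86.4 CPM at 5 d, against 107, 109 and 85.2 CPM at 48 h, and the groups overlap. ODC1 fell by 0.37 ± 0.11 on the log2 scale (adjusted p = 0.041). The ODC1 call was lost without either of libraries 1 and 2 of 5 d or of 48 h, where its adjusted p reached 0.18. MYC itself had 234, 225 and 236 CPM at 5 d, against 251, 243 and 258 CPM at 48 h. MYC did not pass (log2 fold change -0.12 ± 0.15, adjusted p = 0.69). The median of the list was -0.06.

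Of 15 genes listed as D cyclins and inhibitors of cyclin-dependent kinases, 4 fell and 1 rose, with a median of -0.07. CDKN1A, which codes for p21, had 4.46, 3.92 and 4.61 CPM at 5 d, against 15.2, 13.03 and 13.2 CPM at 48 h. CDKN1A fell by 1.67 ± 0.38 on the log2 scale (adjusted p = 0.015). CDKN1C, coding for p57, had 8.68, 13.4 and 13.7 CPM at 5 d, against 17.9, 20.6 and 31.3 CPM at 48 h. CDKN1C fell by 0.96 ± 0.18 on the log2 scale (adjusted p = 0.0029). CDKN2A had 34.4, 30.3 and 36.2 CPM at 5 d, against 53.3, 46.8 and 46.4 CPM at 48 h. CDKN2A fell by 0.54 ± 0.11 on the log2 scale (adjusted p = 0.0045). CDKN2D had 7.81, 9.37 and 10.6 CPM at 5 d, against 13.6, 12.9 and 13.8 CPM at 48 h. CDKN2D fell by 0.53 ± 0.16 on the log2 scale (adjusted p = 0.038). CDKN1B, which codes for p27, was among the 10 that did not pass, at 148, 156 and 151 CPM at 5 d, against 142, 133 and 124 CPM at 48 h (adjusted p = 0.37). The pocket protein gene RBL2 rose (log2 fold change 0.22 ± 0.07, adjusted p = 0.048), a call lost without any 1 of the 6 libraries (adjusted p up to 0.15). The CDKN1A call was lost without library 1 or 2 of 5 d or library 1 of 48 h (adjusted p up to 0.069), and that of CDKN2D in 5 of the 6 such fits and after the GC and length correction.

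In energy metabolism, 6 of 18 nuclear genes of oxidative phosphorylation fell (median -0.24). CYC1, a subunit of complex III, had 66.9, 64.1 and 73.5 CPM at 5 d, against 92.3, 88.6 and 90.1 CPM at 48 h. CYC1 fell by 0.41 ± 0.09 on the log2 scale (adjusted p = 0.011). ATP5F1A, a subunit of ATP synthase, had 289, 295 and 330.3 CPM at 5 d, against 420.0, 399.8 and 364 CPM at 48 h. ATP5F1A fell by 0.37 ± 0.09 on the log2 scale (adjusted p = 0.015). None of the 6 calls held in every fit that left out 1 library, and 1 held after the GC and length correction. None of the 13 genes of the mitochondrial genome passed. GAPDH was the single glycolysis gene of 17 that fell, with 1035, 1042 and 1181 CPM at 5 d, against 1979, 1809 and 1779 CPM at 48 h. GAPDH fell by 0.77 ± 0.13 on the log2 scale (adjusted p = 9.7e-04). Its antisense transcript AC006064.4 fell as well (-1.85, adjusted p = 0.027). Of 18 genes listed for ATF4 and the amino acid response, 2 fell and 1 rose. SHMT2, an enzyme of mitochondrial one-carbon metabolism, had 52.5, 49.04 and 52.7 CPM at 5 d, against 80.2, 82.5 and 74.5 CPM at 48 h. SHMT2 fell by 0.62 ± 0.08 on the log2 scale (adjusted p = 4.8e-05). ATF4 fell by 0.61 ± 0.14 on the log2 scale (adjusted p = 0.011). This call of the transcription factor itself was lost without library 1 of 5 d (adjusted p = 0.066). ALDH1L2, another enzyme of that pathway, had 8.31, 11.8 and 10.5 CPM at 5 d, against 6.07, 5.99 and 6.51 CPM at 48 h. ALDH1L2 rose by 0.72 ± 0.14 on the log2 scale (adjusted p = 0.0027).

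**Figure D3:**
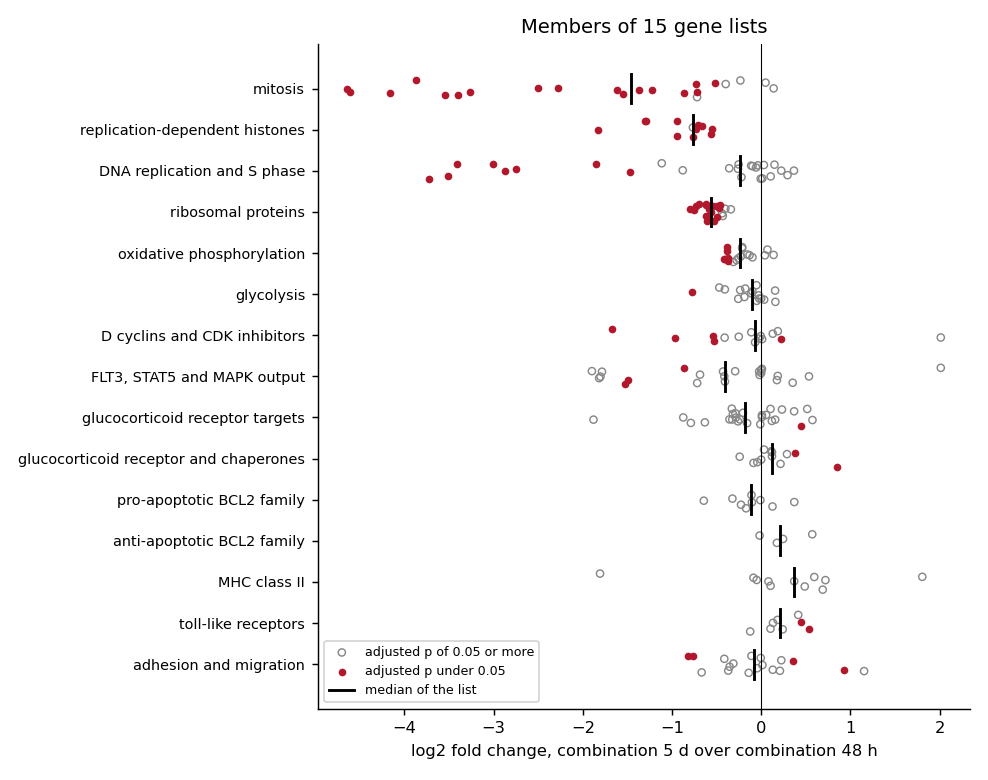
Log2 fold change of the combination at 5 d over 48 h for the members of 15 gene lists, with filled points for genes at an adjusted p under 0.05 and a bar at the median of a list. All filled points of the mitosis, histone, replication, ribosomal protein, oxidative phosphorylation and glycolysis lists lie left of 0.

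Of 26 listed targets of the glucocorticoid receptor, 1 passed, TLR2, beside 9.28% of all genes, and the median log2 fold change was -0.18. Without library 3 of any group, 25 were measured, 4 rose and 1 fell, in a fit with 2537 calls over all genes (1094 higher, 1443 lower). Named after their values were seen, these targets are TLR2 (log2 fold change 0.50, adjusted p = 0.00087), TXNIP (0.56, adjusted p = 0.0015), KLF9 (0.31, adjusted p = 0.030) and DUSP1 (0.90, adjusted p = 0.013), which rose, and DDIT4 (-0.63, adjusted p = 0.00075), which fell. With only library 3 of the 48 h combination left out none of them passed (adjusted p from 0.08 for TLR2 to 0.80 for DUSP1). FKBP5, a co-chaperone of the glucocorticoid receptor, had 597, 725 and 701 CPM at 5 d, against 624, 612 and 645 CPM at 48 h, and the groups overlap. FKBP5 did not pass (log2 fold change 0.10 ± 0.08, adjusted p = 0.46). It averaged 69 ± 1.58 CPM with quizartinib alone at 5 d, 70.4 ± 1.83 CPM with quizartinib alone at 48 h, 1461 ± 54.9 CPM with dexamethasone alone and 104 ± 7.48 CPM with DMSO. Both combination groups thus lay between dexamethasone alone and the groups without it. TSC22D3, which codes for GILZ, had 304, 366 and 402 CPM at 5 d, against 417, 425 and 464 CPM at 48 h. TSC22D3 did not pass (log2 fold change -0.28 ± 0.59, adjusted p = 0.82). Its 5 d libraries all lie below its 48 h libraries, beside 34.2% of all genes without overlap in either direction. The receptor gene NR3C1 had 123.4, 148 and 143 CPM at 5 d, against 122, 126 and 134 CPM at 48 h. NR3C1 did not pass (log2 fold change 0.12 ± 0.09, adjusted p = 0.46). Of 12 genes listed for the receptor and its chaperones, 2 rose and none fell. HSPA8, the constitutive HSP70 chaperone, had 579, 502 and 579 CPM at 5 d, against 330.0, 317 and 271 CPM at 48 h. HSPA8 rose by 0.86 ± 0.13 on the log2 scale (adjusted p = 3.6e-04). PTGES3, the p23 co-chaperone, had 151, 154 and 124 CPM at 5 d, against 112, 105 and 111 CPM at 48 h. PTGES3 rose by 0.38 ± 0.10 on the log2 scale (adjusted p = 0.021). The PTGES3 call was lost in 5 of the 6 fits without 1 library (adjusted p up to 0.11), and the TLR2 call is taken up with the other Toll-like receptor.

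PER1, ZBTB16 and SGK1 were picked from the target list after their values were seen. PER1, a clock gene with a strong glucocorticoid response, had 86.8, 111 and 109.6 CPM at 5 d, against 88.5, 88.2 and 119 CPM at 48 h (adjusted p = 0.91). ZBTB16, which codes for PLZF, had 16.7, 35.1 and 29.02 CPM at 5 d, against 19.8, 23.9 and 53.5 CPM at 48 h, and averaged 0.895 and 0.561 CPM with quizartinib alone at 5 d and 48 h. Its log2 fold change was -0.26 ± 0.37 (adjusted p = 0.73) over all libraries and 0.30 (adjusted p = 0.65) without the third 48 h library, so its direction rests on that library. SGK1, a kinase induced by glucocorticoids and by stress, had 4.53, 10.1 and 8.04 CPM at 5 d, against 10.95, 15.2 and 57.9 CPM at 48 h, the third 48 h library standing far above its partners. Its log2 fold change was -1.88 ± 0.92 (adjusted p = 0.24), and -0.84 (adjusted p = 0.11) without library 3 of any group. Of 6 genes listed for a strong rise with dexamethasone alone, chosen on these same samples, none passed. Among them is ADAMTS2, a procollagen protease, with 109, 146 and 145 CPM at 5 d, against 149, 159.6 and 189 CPM at 48 h (adjusted p = 0.11). ADAMTS2 averaged 3.96 CPM with quizartinib at 5 d. CD163, a scavenger receptor of macrophages, had 0.496, 1.52 and 1.71 CPM at 5 d, against 0.764, 1.14 and 2.39 CPM at 48 h (adjusted p = 0.9), and 0 counts in all libraries of quizartinib alone.

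**Figure D4:**
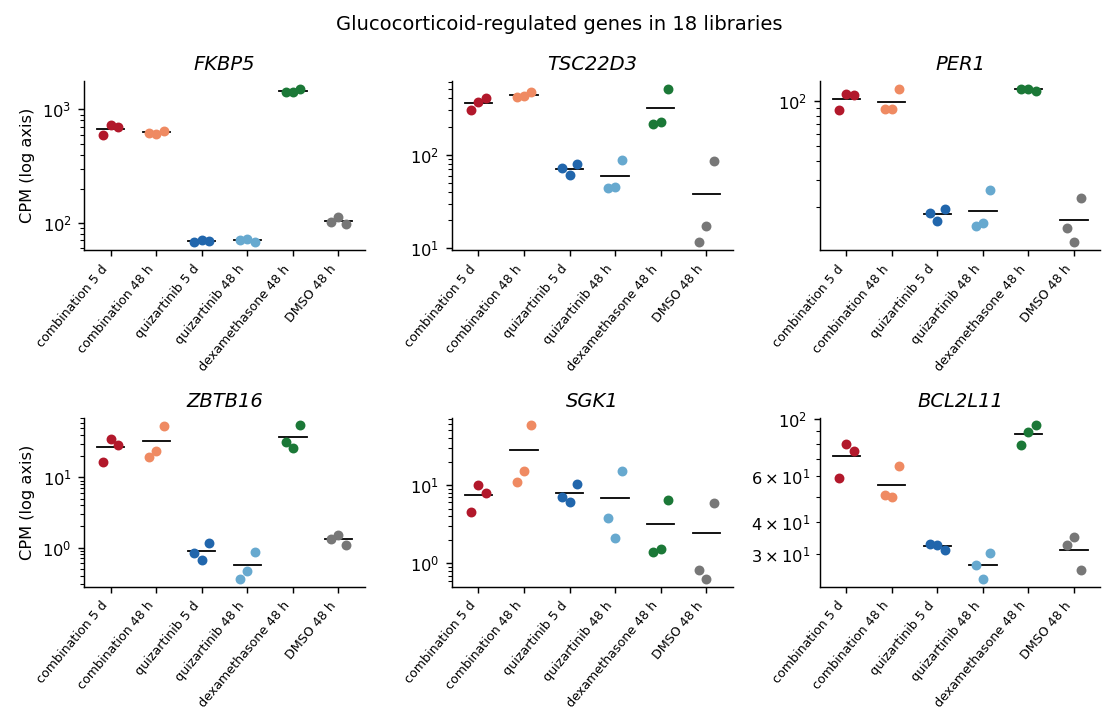
Levels (CPM, log axis) of 6 glucocorticoid-regulated genes in each of the 18 libraries, with points for libraries and a line at the mean of a group. The combination groups lie above both quizartinib groups for FKBP5, TSC22D3, PER1, ZBTB16 and BCL2L11, and library 3 (the rightmost point of a group) is high for SGK1 in every 48 h group.

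In the BCL2 family, neither the 9 death-promoting nor the 4 protective genes measured held a call over all libraries. BCL2L11, which codes for the death protein BIM, had 59.3, 80.1 and 75.4 CPM at 5 d, against 50.9, 49.8 and 65.6 CPM at 48 h. BCL2L11 did not pass (log2 fold change 0.37 ± 0.13, adjusted p = 0.083). The long RNA gene MIR4435-2HG spans its locus on the other strand. BMF, another BH3-only protein, had 138, 129 and 142 CPM at 5 d, against 161, 162 and 155 CPM at 48 h. BMF did not pass (log2 fold change -0.23 ± 0.07, adjusted p = 0.064). Without library 3 of any group BCL2L11 was higher at 5 d (log2 fold change 0.47, adjusted p = 0.012) and BMF lower (-0.28, adjusted p = 0.019). With only library 3 of the 48 h combination left out BCL2L11 passed (0.50, adjusted p = 0.034) and BMF did not (-0.25, adjusted p = 0.084). BCL2 had 142, 124 and 115 CPM at 5 d, against 115, 124 and 98.9 CPM at 48 h (adjusted p = 0.53). Every library of the combination lay below the mean of 183 CPM with quizartinib at 5 d and 279.9 CPM with DMSO. MCL1, a short-lived protective protein, had 328, 440.5 and 421 CPM at 5 d, against 208, 214 and 378 CPM at 48 h. MCL1 did not pass (log2 fold change 0.57 ± 0.63, adjusted p = 0.64). The third 48 h library is set apart there as well. With only that library left out MCL1 did not pass (0.90, adjusted p = 0.54). Without library 3 of any group MCL1 was higher at 5 d (0.86, adjusted p = 3.6e-05).

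The immediate early genes depended on the same libraries. None of the 18 passed over all libraries, and 4 rose without library 3 of any group. Library 3 was left out because of these same 18 genes, so that fit is no separate test of them. FOS had 213, 235 and 291 CPM at 5 d, against 74.8, 82.3 and 339 CPM at 48 h. The log2 fold change of FOS was 0.58 ± 1.52 (adjusted p = 0.87) over all libraries and 1.51 (adjusted p = 1.2e-07) without library 3 of any group. With only library 3 of the 48 h combination left out it was 1.64 (adjusted p = 0.67). EGR1 had 36.6, 39.9 and 49.7 CPM at 5 d, against 9.81, 14 and 103 CPM at 48 h. For EGR1 the log2 fold change was 0.01 ± 1.56 (adjusted p = 0.999) over all libraries and 1.68 (adjusted p = 0.01) without library 3 of any group. With only library 3 of the 48 h combination left out it was 1.82 (adjusted p = 0.63). For both genes libraries 1 and 2 of 48 h lie below all 3 libraries of 5 d, and library 3 of 48 h lies above them.

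Of 23 genes listed as output of FLT3, STAT5 and MAP kinase signalling, 3 fell, beside 5.46% of all genes. FOSL1, an AP-1 factor driven by MAP kinase, had 0.558, 0.886 and 1.24 CPM at 5 d, against 1.78, 2.07 and 4.23 CPM at 48 h. FOSL1 fell by 1.53 ± 0.45 on the log2 scale (adjusted p = 0.041). SPRY2, a feedback inhibitor of the pathway, had 0.248, 0.3797 and 0.714 CPM at 5 d, against 1.32, 1.28 and 1.36 CPM at 48 h. SPRY2 fell by 1.49 ± 0.44 on the log2 scale (adjusted p = 0.041). SPRED2, another such inhibitor, had 1.61, 1.58 and 1.47 CPM at 5 d, against 2.29, 2.47 and 3.85 CPM at 48 h. SPRED2 fell by 0.87 ± 0.21 on the log2 scale (adjusted p = 0.013). None rose, and the median was -0.41. None of the 3 calls held in every fit that left out 1 library. That of SPRED2 was lost without library 3 of 48 h (adjusted p = 0.058), and those of FOSL1 and SPRY2 in 4 and 5 of the 6 fits (up to 0.16). The levels were low beside DMSO, where SPRED2 averaged 35.1 ± 3.45 CPM and FOSL1 21.7 ± 2.96 CPM. FLT3, whose values are given above, did not pass (log2 fold change 0.05 ± 0.09, adjusted p = 0.78).

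IGF1 codes for a growth factor, and it had 527, 477 and 409 CPM at 5 d, against 229, 210.4 and 190.1 CPM at 48 h. IGF1 rose by 1.17 ± 0.12 on the log2 scale (adjusted p = 1.1e-05). The mean at 5 d was 2.24-fold that at 48 h. IGF1 averaged 633 ± 27.4 CPM with quizartinib at 5 d, 407 ± 30.9 CPM with quizartinib at 48 h, 1.53 ± 0.2699 CPM with dexamethasone and 13.8 ± 2.79 CPM with DMSO. IGFBP7, which binds IGF1 and insulin, had 13.2, 10.5 and 11.6 CPM at 5 d, against 23.8, 22.99 and 22.6 CPM at 48 h. IGFBP7 fell by 0.98 ± 0.14 on the log2 scale (adjusted p = 2.4e-04). Both calls held in every fit that left out 1 library.

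Of 18 genes listed for adhesion and migration, 2 fell and 2 rose, beside 5.46% and 3.82% of all genes. ITGAL, the alpha chain of the integrin LFA-1, had 249.7, 183 and 181 CPM at 5 d, against 383, 379 and 325 CPM at 48 h. ITGAL fell by 0.82 ± 0.11 on the log2 scale (adjusted p = 1.5e-04). ITGB7, an integrin beta chain, had 32.05, 23.3 and 26.8 CPM at 5 d, against 50.99, 49.5 and 39.4 CPM at 48 h. ITGB7 fell by 0.77 ± 0.14 on the log2 scale (adjusted p = 0.0019). The fractalkine receptor gene CX3CR1 (log2 fold change 0.93 ± 0.27, adjusted p = 0.042) and the integrin gene ITGB1 (log2 fold change 0.35 ± 0.09, adjusted p = 0.022) rose. Their calls were lost in 5 and 3 of the 6 fits that left out 1 library (adjusted p up to 0.16 for CX3CR1 and 0.12 for ITGB1) and with the GC and length correction. Of 8 Toll-like receptor genes, 2 rose. TLR2, which is also the called glucocorticoid target, had 359, 358 and 295 CPM at 5 d, against 254, 252 and 237 CPM at 48 h. TLR2 rose by 0.45 ± 0.12 on the log2 scale (adjusted p = 0.022). TLR4, the lipopolysaccharide receptor, had 33.97, 30.9 and 29.4 CPM at 5 d, against 21.7, 19.7 and 23.4 CPM at 48 h. TLR4 rose by 0.54 ± 0.14 on the log2 scale (adjusted p = 0.023). TLR2 lost its call in 5 and TLR4 in 4 of the 6 fits without 1 library (adjusted p up to 0.1). Both lost it with the GC and length correction. TLR4 averaged 129.5 CPM with dexamethasone alone and 14.4 CPM with DMSO.

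MHC class II genes showed no call among 11, with a median of 0.37. HLA-DRA had 29.3, 20.6 and 20.8 CPM at 5 d, against 19.7, 17.4 and 9.34 CPM at 48 h. HLA-DRA did not pass (log2 fold change 0.60 ± 0.25, adjusted p = 0.15). CIITA, the master activator of class II genes, had 27.2, 23.04 and 17.2 CPM at 5 d, against 12.5, 15.8 and 12.4 CPM at 48 h. CIITA did not pass (log2 fold change 0.72 ± 0.22, adjusted p = 0.051). Without library 3 of any group both passed, higher at 5 d (HLA-DRA 0.42, adjusted p = 0.044, and CIITA 0.82, adjusted p = 0.00012). With only library 3 of the 48 h combination left out neither passed (HLA-DRA 0.33, adjusted p = 0.37, and CIITA 0.65, adjusted p = 0.15). CD74, the invariant chain, had 164, 106 and 119 CPM at 5 d, against 155, 141 and 117 CPM at 48 h (adjusted p = 0.78), and averaged 648 and 687 CPM with quizartinib alone at 5 d and 48 h. Of 13 class I genes, the proteasome subunit gene PSMB9 fell (log2 fold change -0.57 ± 0.16, adjusted p = 0.035), and overlapping genes share its locus. The PSMB9 call was lost in 4 of the 6 fits without 1 library (adjusted p up to 0.18) and with the GC and length correction (adjusted p = 0.19). Of 16 cytokine receptor genes, 1 rose and 1 fell, beside 9.28% of all genes called. IL6R rose (log2 fold change 0.38 ± 0.11, adjusted p = 0.041) and IL3RA, the interleukin-3 receptor, fell (log2 fold change -0.69 ± 0.19, adjusted p = 0.029). Neither call held in every fit that left out 1 library, nor did that of IRF7, an interferon-responsive factor and the 1 called of 20 interferon-stimulated genes (log2 fold change -0.72 ± 0.19, adjusted p = 0.023), and of AZU1, the azurocidin of myeloid granules (log2 fold change 0.32 ± 0.08, adjusted p = 0.012).

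Several further lists held 1 call or 2, beside 9.28% of all genes called in either direction. Of 20 lysosome and autophagy genes, LAMP2, a lysosomal membrane protein, rose (log2 fold change 0.30 ± 0.09, adjusted p = 0.042) and the protease gene CTSS fell (log2 fold change -0.37 ± 0.10, adjusted p = 0.029). Of 18 monocyte and macrophage genes, the scavenger receptor gene STAB1 fell (log2 fold change -0.96 ± 0.29, adjusted p = 0.041). Of 8 granule genes of myeloid progenitors, CST7 fell (log2 fold change -1.001 ± 0.28, adjusted p = 0.029) and AZU1, as above, rose. Of 16 genes of FOXO and quiescence, the sestrin gene SESN3 rose (log2 fold change 0.41 ± 0.12, adjusted p = 0.035). Of 9 stem and progenitor genes, the homeobox gene MEIS1 rose, with 179, 186 and 175 CPM at 5 d, against 154, 155 and 144 CPM at 48 h (adjusted p = 0.036). These calls were each lost in at least 3 of the 6 fits without 1 library (adjusted p up to 0.2). None of 22 sterol and lipid synthesis genes, 15 inflammatory genes, 11 complement genes, 14 myeloid transcription factor genes and 4 entries for 7SK and 7SL passed, and their medians were -0.01, -0.14, 0.12, -0.08 and -0.77.

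Leaving out library 3 of every group, which gave 1094 higher and 1443 lower genes in all, moved further list counts. In that fit 13 of 18 oxidative phosphorylation genes fell, as did 11 of 26 DNA replication and S phase genes and 5 of 17 glycolysis genes. Of the 7SK and 7SL RNAs 3 of 4 fell, 7SK itself by 0.45 on the log2 scale (adjusted p = 0.030). In the list FLT3, STAT5 and MAPK output 5 of 22 fell and 1 rose, and of 16 haematopoietic cytokine receptors 4 rose and 1 fell. Among the lists without a call over all libraries, 1 gene rose in sterol and lipid synthesis and 1 in inflammatory and NF-kB, while complement and myeloid transcription factors each had 1 rise and 1 fall. In MHC class I 3 of 13 genes fell, and in adhesion and migration 4 of 18. The same fit lost the calls of SPRED2 (adjusted p = 0.079), STAB1 (adjusted p = 0.16), CST7 (adjusted p = 0.052) and MEIS1 (adjusted p = 0.068).

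The rule for named genes also gave the 12 highest and 12 lowest fold changes among called genes with a mean of at least 5 CPM in 1 group and no overlap. Highest within these limits were 2 small nucleolar RNAs. SNORA63 had 6.32, 9.81 and 15.3 CPM at 5 d, against 0.0425, 0.528 and 0.217 CPM at 48 h. SNORA63 rose by 5.29 ± 1.44 on the log2 scale (adjusted p = 0.039). SNORA53 had 23.6, 29.7 and 28.1 CPM at 5 d, against 3.27, 5.901 and 5.86 CPM at 48 h. SNORA53 rose by 2.44 ± 0.61 on the log2 scale (adjusted p = 0.027). They lie inside EIF4A2 and SLC25A3 on the same strand, whose reads cannot be told from theirs here. Their calls were lost without any 1 of the 6 libraries (adjusted p up to 0.13 and 0.1). SECTM1, a membrane protein of myeloid cells, had 10.3, 13.4 and 14.3 CPM at 5 d, against 4.76, 4.45 and 7.06 CPM at 48 h. SECTM1 rose by 1.23 ± 0.23 on the log2 scale (adjusted p = 0.0021). SLC24A4, a sodium, potassium and calcium exchanger, had 11.6, 9.05 and 9.56 CPM at 5 d, against 5.31, 4.36 and 4.61 CPM at 48 h. SLC24A4 rose by 1.08 ± 0.19 on the log2 scale (adjusted p = 0.0015). Both held in every such fit, as did the zinc finger gene ZNF382 (log2 fold change 1.13 ± 0.25, adjusted p = 0.0075). ZNF529, which overlaps ZNF382 on the other strand, was higher as well (0.57, adjusted p = 0.018). NPC1L1, a sterol transporter (log2 fold change 1.27 ± 0.33, adjusted p = 0.02), CRISPLD2 (log2 fold change 1.24 ± 0.33, adjusted p = 0.027) and the Notch ligand gene JAG1 (log2 fold change 1.02 ± 0.28, adjusted p = 0.028) rose but lost their calls in 5, 4 and 4 of the 6 fits. At the low end, outside the division and histone genes, stood CSPG4, the proteoglycan NG2, with 3.66, 3.797 and 3.33 CPM at 5 d, against 12.99, 15.4 and 21.01 CPM at 48 h. CSPG4 fell by 2.19 ± 0.21 on the log2 scale (adjusted p = 8.1e-06). Its mean was 154 CPM with DMSO. IQGAP3, a scaffold of dividing cells, had 0.6199, 0.5696 and 0.333 CPM at 5 d, against 4.37, 4.32 and 7.76 CPM at 48 h. IQGAP3 fell by 3.44 ± 0.28 on the log2 scale (adjusted p = 5.9e-07). ASPM, a spindle pole protein, had 2.29, 1.77 and 0.999 CPM at 5 d, against 10.9, 10.4 and 4.45 CPM at 48 h. ASPM fell by 2.40 ± 0.35 on the log2 scale (adjusted p = 7.3e-04).

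Markers of other cells gave 2 calls. None of the 4 measured of 8 B cell markers passed, and their sum was 2.42 to 3.24 CPM at 5 d and 2.71 to 3.95 CPM at 48 h. Of 11 erythroid and megakaryocyte markers 1 was measured, ITGA2B, which did not pass. CD4 and NKG7 were the 2 measured of 10 T and NK cell markers, and neither passed. Of the 3 measured fibroblast and epithelial markers, 2 fell. The collagen gene COL1A1 had 0, 0.127 and 0.285 CPM at 5 d, against 0.552, 0.661 and 2.55 CPM at 48 h. COL1A1 fell by 3.01 ± 0.82 on the log2 scale (adjusted p = 0.03). The keratin gene KRT8 had 6.26, 5.57 and 8.04 CPM at 5 d, against 10.6, 11.2 and 12.97 CPM at 48 h. KRT8 fell by 0.80 ± 0.24 on the log2 scale (adjusted p = 0.043). Their calls were lost in 3 and 5 of the 6 fits without 1 library (adjusted p up to 0.16 and 0.18), and the list summed to 10.8 to 14.8 CPM at 5 d and 18.5 to 23.3 CPM at 48 h. Whether these genes have a part in other results was not tested. In bulk RNA, fewer cells of a type and less RNA per cell cannot be told apart. The genes that rose had a median transcript GC content of 40.5% and length of 4488 bases, those that fell 54.0% and 2058 bases, and all genes 49.0% and 2814 bases. With a correction for both properties 386 genes were higher and 791 lower. Of these 1177 genes 900 were among the 1525 called without it, so the other calls of both fits differ. The part of GC content and length in single results was not tested.

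Quizartinib alone was also sampled at 48 h and at 5 d, in libraries that share none with the combination groups. There 153 genes were higher at 5 d and 385 lower (3.27% of all genes, 0.931% higher and 2.34% lower). Of the 897 genes that fell with the combination, 322 also fell with quizartinib alone, which is 35.9% of the first list and 83.6% of the second. Of the 628 that rose with the combination 89 also rose with quizartinib, 14.2% of the first list and 58.2% of the second. No gene that rose with the combination fell with quizartinib, and 2 that fell with the combination rose with quizartinib, CIT and CENPE. Ribosomal protein genes fell in both arms (17 and 15 of 21, medians -0.57 and -0.49). Mitosis genes fell in 17 of 22 with the combination (median -1.46) and in 2 of 22 with quizartinib, where 1 rose (median -0.20). The combination calls of CIT and CENPE were each lost in 2 of the 6 fits without 1 library (adjusted p up to 0.079 and 0.083). That of CIT was also lost without library 3 of any group (log2 fold change -0.34, adjusted p = 0.078) and with the groups of the contrast alone in the fit. With 1 library of quizartinib left out, its calls numbered 236, 148 and 270 without library 1, 2 or 3 of 5 d, and 267, 375 and 185 without library 1, 2 or 3 of 48 h.

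The difference between the 2 changes, that is the fold change of 5 d over 48 h with the combination minus that with quizartinib alone, was then tested in the same fit. It passed in 11 genes, 0.067% of all, each lower with the combination, and in none in the other direction. At an unadjusted p under 0.05 there were 627 genes, 240 higher and 387 lower, and DESeq2 called 39. The 11 genes are CIT, CENPF, IQGAP3, CCNB2, CDCA5, MKI67, TOP2A, TPX2, PLK1, CENPE and CDT1, and of these IQGAP3 codes for a scaffold protein of proliferating cells and the other 10 act in mitosis, cytokinesis or the start of DNA replication. TOP2A shows the pattern. It had 8.49, 7.47 and 6.04 CPM with the combination at 5 d and 26.5, 21.9 and 15.7 CPM with the combination at 48 h, against 7.9, 8.74 and 6.45 CPM with quizartinib at 5 d and 7.495, 8.19 and 8.001 CPM with quizartinib at 48 h. The 48 h combination libraries stand above the other 9, which overlap. The log2 difference in TOP2A was -1.52 ± 0.24, adjusted p = 0.017. In CIT, the citron kinase of cytokinesis, the directions were opposed. It had 8.06, 8.04 and 6.57 CPM at 5 d against 10.9, 9.38 and 9.88 CPM at 48 h with the combination, and 8.58, 9.004 and 8.62 CPM at 5 d against 4.93, 4.91 and 5.32 CPM at 48 h with quizartinib. The log2 difference in CIT was -1.20 ± 0.14, adjusted p = 0.002.

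At 5 d the levels of the division genes lay close together in both arms. The 22 mitosis genes summed to 64.0 to 68.9 CPM with the combination at 5 d and 66.1 to 72.3 CPM with quizartinib at 5 d. At 48 h they summed to 156 to 188 CPM with the combination and 74.3 to 82.9 CPM with quizartinib, against 3447 to 3716 CPM with DMSO. CENPF averaged 6.497 ± 0.851 CPM and 31.8 ± 1.37 CPM with the combination at 5 d and 48 h, and 7.204 ± 0.569 CPM and 11.4 ± 2.63 CPM with quizartinib at 5 d and 48 h (SD, n = 3 each). The sums of the 2 arms thus overlapped at 5 d and lay apart at 48 h. Fits without 1 library gave 4 to 14 calls of the difference, of which 4 to 10 were among the 11 genes named above. They gave 4 and 5 without library 1 or 2 of quizartinib at 5 d, 7 without library 3 of quizartinib at 48 h, and 6 without library 2 of either combination group or without library 1 or 2 of quizartinib at 48 h.

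**Figure D5:**
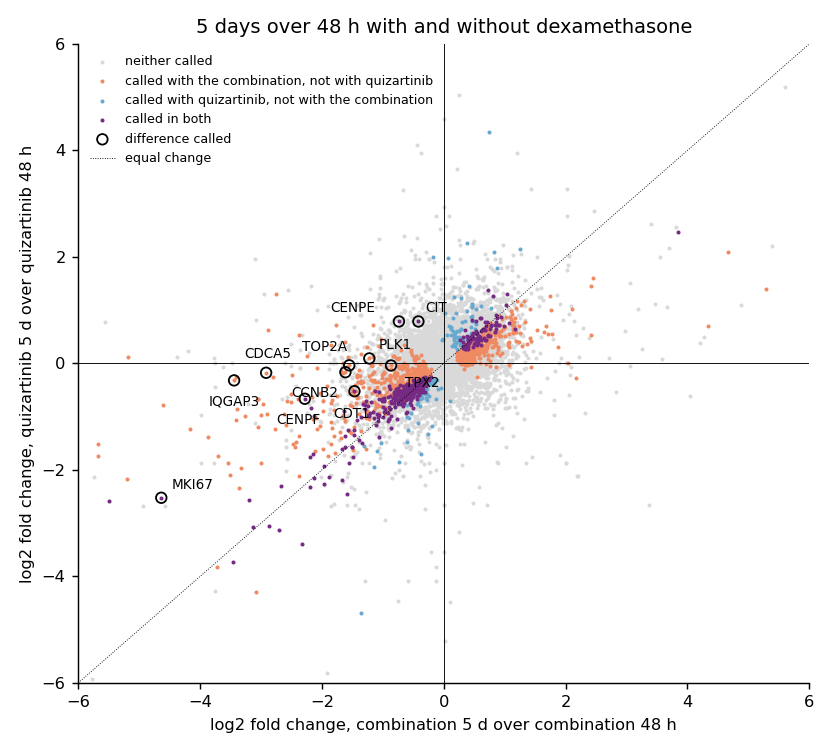
Log2 fold change of 5 d over 48 h with the combination (horizontal) against that with quizartinib alone (vertical), 1 point per gene, coloured by which of the 2 comparisons called it, with 16 genes outside the axes. The 11 circled genes, whose changes differed, all lie above the dotted line of equal change.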

How the data were processed

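The authors deposited counts per gene for the 18 libraries of the drug experiment, in 1 table for each of the 6 groups. The tables were joined, and their whole numbers were used as they stand. RNA was total RNA in a directional library kit on an Illumina HiSeq, per the labels' protocols. Per the submitters' processing notes, the tools include CASAVA, STAR 2.7.3, RSEM, edgeR and DESeq2 with GRCh38, in no stated role or order, and how RSEM estimates became whole counts, and whether counting used the strand, is not given in the sources used here. Overlapping and antisense genes may therefore share reads. Symbols came from the tables for 14051 entries and by Ensembl ID for 2263, and 116 kept the ID. Gene positions are those of GENCODE 29. The recovery experiment was not used here.

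Libraries were scaled by TMM and fitted by group over all 18 with edgeR 4.0.16 (R 4.3.3, limma 3.58.1), by the quasi-likelihood test, with Benjamini-Hochberg adjustment and calls at an adjusted p under 0.05. The filter filterByExpr removed none of the 16430 genes. Levels are CPM, counts relative to the TMM-scaled library total. An exact permutation test of 3 against 3 libraries cannot go below p = 0.1, so single genes were tested in this fit alone. The fit was tested on simulated data. Alternatives were DESeq2 1.42.0, its size factors in edgeR, scaling without 7SK and 7SL, no filter, a filter at 1 CPM in 3 libraries, a replicate block, the groups of a contrast alone, each library left out, and library 3 of every group left out. A correction for transcript GC content and length (for 16305 genes) was added after seeing the data. Tables and figures used Python 3.11.15, pandas 2.3.3, numpy 2.4.6 and matplotlib 3.10.9.

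Genes were named by a rule: the 12 highest and 12 lowest fold changes among calls without overlap and with a mean of at least 5 CPM in 1 group, up to 4 called and 2 uncalled members of each of 39 gene lists, a set of drug and survival genes, and the extremes of the difference. Others are said to be chosen after their values were seen, and family counts in the closing section were also chosen so. The groups, lists and genes were chosen with earlier results of these data known. The results of 1 of the lists are not reported here.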

Additional observations from a re-analysis of the deposited data

Results flagged for a closer look

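In 11 genes the change from 48 h to 5 d differed between the combination and quizartinib alone, by the test of the difference itself in edgeR's quasi-likelihood fit. The log2 difference, that is the fold change with the combination minus that with quizartinib alone, was -3.12 for IQGAP3, -2.74 for CDCA5, -2.11 for MKI67, -1.62 for CENPF, -1.52 for TOP2A and -1.52 for CENPE. It was -1.45 for CCNB2, -1.32 for PLK1, -1.20 for CIT, -0.94 for CDT1 and -0.83 for TPX2. All 11 are below 0, and all 11 genes fell with the combination. Of the 11 differences, 9 were called again with the GC and length correction and 4 with the groups of the contrast alone in the fit. With 1 library left out, 4 to 10 of them were called again. With quizartinib alone MKI67, CENPF and CDT1 fell, CIT and CENPE rose, and the other 6 did not pass. The 7SK and 7SL share of the libraries also differed, at 16.47% to 22.12% with the combination at 5 d and 21.48% to 31.61% with the combination at 48 h, and at 18.83% to 21.39% with quizartinib at 5 d and 16.03% to 18.78% with quizartinib at 48 h. With 7SK and 7SL left out of the scaling all 11 genes were called again. That scaling changed few calls anywhere (1516 against 1525 for the combination), so it says little about these shares. Their part in the 11 calls was not tested.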

How the results depend on the processing

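Calls are given as higher and lower at 5 d. The combination had 386 higher with the GC and length correction, 943 with the replicate block, 1030 with its own groups alone in the fit, 1094 without replicate 3 and 180 to 481 with 1 library left out. It had 1443 lower without replicate 3 and 437 to 766 with 1 library left out. Quizartinib alone had 297 and 626 with DESeq2, 334 and 602 with the block, 357 and 656 with its own groups, 337 and 515 without replicate 3, and 26 to 70 higher and 122 to 305 lower with 1 library left out. For the difference, 39 genes were lower with DESeq2, 22 with the block, 6 with the groups of the contrast, 45 without replicate 3 (3 higher) and 4 to 14 with 1 library left out (0 to 1 higher). The other scalings and filters kept each count within 1.5 times. Among the uncalled genes of the text that were recomputed under the alternatives, the log2 fold change of 9 changed sign. Without replicate 3 it was -0.072 for AURKA, 0.072 for CD163, -0.037 for FLT3 and 0.24 for ZBTB16. With the GC and length correction it was 0.067 for CD74, -0.035 for FKBP5, -0.037 for FLT3 and -0.073 for NR3C1, and with DESeq2 -0.0012 for EGR1. With 1 library left out it ran from -0.064 to 0.32 for AURKA, -0.48 to 0.39 for CD163, -0.30 to 0.039 for CD74, -0.45 to 1.82 for EGR1, -0.043 to 0.11 for FLT3, -0.010 to 0.21 for PER1 and -0.51 to 0.30 for ZBTB16. The causes were not tested. Same-numbered combination libraries did not deviate together throughout (r = 0.133, -0.07 and 0.115). Library 2 of 5 d correlated best with library 3 of 48 h (0.126), so the numbers were not taken as pairs. With quizartinib alone the same-numbered libraries gave 0.078, 0.087 and 0.128, each the highest for its 5 d library. With the replicate block 2135 genes were called for the combination, against 1525 without it. Whether the numbers mark pairs was not settled. At a depth of 14795190 counts in the smallest library, the lowest genes rest on few reads.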

Other observations

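Larger gene families, chosen after their values were seen and therefore counted without a test of the family, are set here beside the 3.82% of all genes that rose and the 5.46% that fell with the combination at 5 d relative to 48 h. Of 72 histone genes of the HIST clusters, 55 fell and none rose (median log2 fold change -1.08), against 9 that fell with quizartinib alone. The 55 include both HIST2H3A and HIST2H3C, which have the same counts in every library and are not separate measurements. Of 83 cytosolic ribosomal protein genes 60 fell and none rose (median -0.55), and 38 fell with quizartinib alone. Of 75 mitochondrial ribosomal protein genes 17 fell (median -0.25), and 36 without library 3 of any group. Of 13 subunits of the translation initiation factor eIF3, 8 fell, EIF3D furthest, with 137, 140.3 and 154 CPM at 5 d and 253, 241 and 233 CPM at 48 h. Of 31 kinesin genes 8 fell. In the other direction, 84 of 473 zinc finger genes named ZNF rose and 5 fell (median 0.23). With the GC and length correction 41 rose and 2 fell. Without library 3 of the 48 h combination 38 of them rose and 5 fell. Of 30 HSP70, HSP40 and HSP110 chaperone genes 5 rose and none fell: HSPA8, HSPH1, DNAJA1, DNAJA4 and HSPA4L. HSPH1 had 60.8, 62.7 and 56.4 CPM at 5 d and 42.1, 42.1 and 34.5 CPM at 48 h. Of 58 small nucleolar RNA genes 8 rose and none fell, while their median log2 fold change was -0.13.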
